A study of Drosophila melanogaster with 24 samples.

Results

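The comparison described here sets the larval fat body of Drosophila melanogaster 11 days after egg laying against day 8, in larvae that carry wing disc tumours. It uses 8 of the 24 RNA-seq libraries of a time series, 4 at tumour day 11 and 4 at tumour day 8, chosen by the labels of genotype and day alone. Larvae of both days were C855a-Gal4/UAS-scrib-RNAi: an epithelial Gal4 driver expressed a hairpin against scrib, a cell polarity gene, so the knockdown was not aimed at the fat body itself. Larvae of this genotype fail to pupate and keep growing, per the labels. The study has controls of C855a-Gal4/UAS-control-RNAi at days 4 and 5, none of day 8 or 11 is used here, and the passage of time and the growth of the tumours therefore cannot be told apart. Tumour libraries of day 5, of the same C855a-Gal4/UAS-scrib-RNAi genotype, serve as background for the 3 days before day 8. Eggs were collected over 3 hours and each library pooled the fat bodies of 50 larvae. Nothing in the labels says whether the pools of 1 day were raised as separate cultures, so the p-values below measure the spread between pools, which may be technical. That spread was estimated in a fit of all 24 libraries, which included the controls and the tumour libraries of days 4 and 5.

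The fat body does the work of a liver and of adipose tissue in insects. It fills the blood with storage proteins during larval growth, and it answers microbes and tissue damage by secreting immune peptides under the Toll and Imd pathways. Plasmatocytes, the phagocytic blood cells (haemocytes) of the larva, can settle on it, and its basement membrane is built from collagen IV, laminin, perlecan and other matrix proteins.

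Total counts were 18144623 to 23352151 per library at day 11 and 16074877 to 18562382 at day 8. Levels are given as CPM, counts scaled to a common library size with TMM factors, which are not divided by gene length and so are compared between days and not between genes. The 8 fat body markers were all detected, with summed levels of 56730 to 73520 CPM at day 11 and 94720 to 146900 CPM at day 8, the storage protein genes making up most of the sum. RNA of other organs was uneven. Midgut markers summed to 285 CPM in replicate 3 of day 11 and to 8.19, 12.3 and 8.75 CPM in its other libraries, and to 243 CPM in replicate 1 of day 8 and 3.91, 4.96 and 3.81 CPM in its other libraries. Salivary gland markers summed to 52.9 to 62.9 CPM at day 11 and to 60.02 to 73.2 CPM at day 8 outside replicate 1, which held 192 CPM. Nervous system markers summed to 420.5 to 473.4 CPM at day 11 and 353.7 to 417.3 CPM at day 8. Prothoracic gland markers were also higher, at 2.493 to 4.895 and 1.071 to 1.674 CPM. Oenocyte markers were lower, at 209.9 to 248.4 and 252 to 280.5 CPM, and no tested member of these lists passed the test. In a principal component analysis of the 8 libraries, replicate 1 of day 8 lay apart, at 54.2 on the first component (33.5% of the variance), against -28.2 to -11.1 for day 11 and 2.70 to 9.52 for the other day 8 libraries. Calls were therefore also tested without replicate 3 of day 11 and replicate 1 of day 8, a setting chosen after seeing the data. The targeted gene scrib was at 38.8, 40.7, 45.4 and 44.3 CPM at day 11 and at 32.03, 35.7, 41.8 and 35.4 CPM at day 8, a difference that did not pass the test (log2 fold change 0.22 ± 0.10 SE, adjusted p = 0.243), and it does not check the labels because the driver is epithelial.

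Haemocyte transcripts and a few immune peptide transcripts were higher at day 11. Some storage protein and glutathione S-transferase transcripts were lower, and cytochrome P450 genes went both ways. Several serine protease transcripts were higher too, in a group formed after the values were seen. Of its 17 higher members 8 were called without each library in turn, and its median log2 fold change was 0.04. Several lists of metabolic and translational genes held no called member, against 3.34% of all tested genes. In lists of 10 or 11 genes a count of 0 is close to that share. Genes were called at an adjusted p under 0.05 (edgeR's quasi-likelihood test, Benjamini-Hochberg adjustment over all tested genes). Of 8707 genes tested, 291 were called (3.34%), 150 higher (1.72%) and 141 lower (1.62%) at day 11. At least 2-fold differences were found in 99 of them, 70 higher and 29 lower. The median size of a called change was 0.69 on the log2 scale, and 270 of the 291 had no overlap between the libraries of both days, a separation that 17.2% of all tested genes showed, 9.69% with all day 11 libraries above and 7.51% with all below. The number called depended on single libraries: it was 170, 141 and 167 without replicates 2, 3 and 4 of day 11, and 137 and 177 without replicates 1 and 2 of day 8. Without each of the 8 libraries in turn, 103 genes (60 higher, 43 lower) were called every time. Without both libraries with gut RNA 41 were called, 39 of them among the 291, and none of the 291 changed direction. That fit had fewer libraries of each day, and no other pair of libraries was left out for comparison. The part of gut RNA in the calls lost there, here and below, was therefore not tested.

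**Figure D1:**
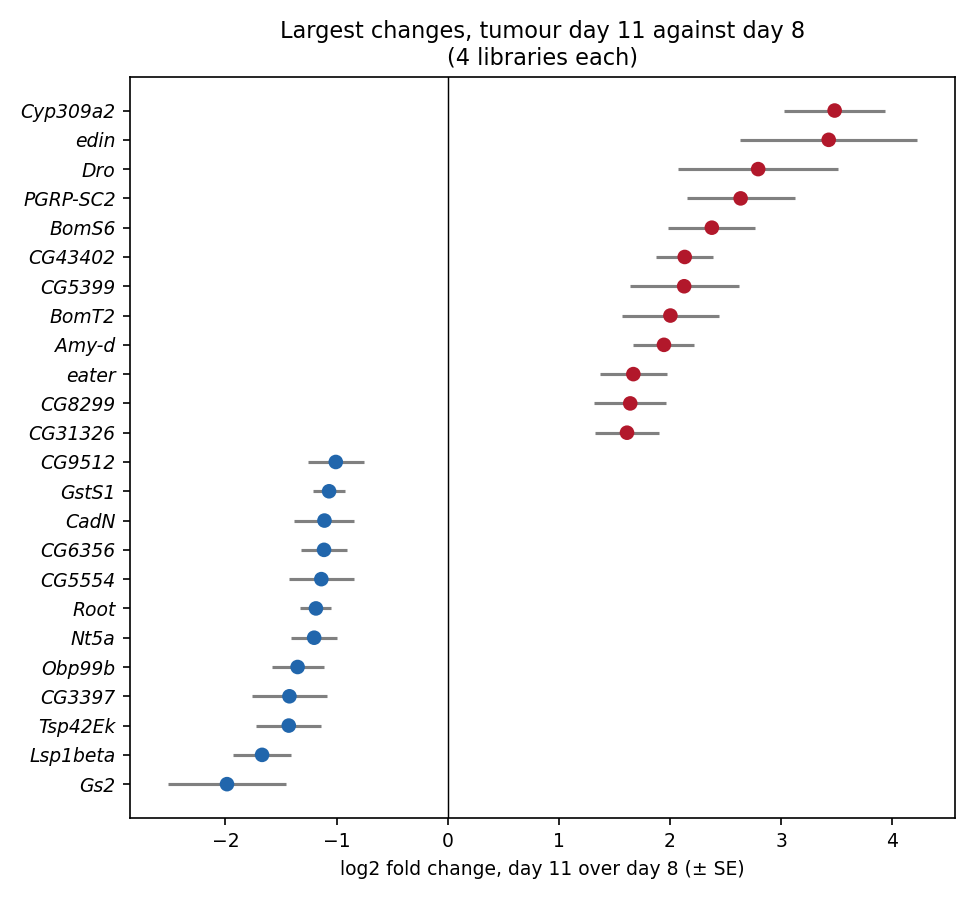
Log2 fold change of day 11 over day 8 with its standard error for the 12 highest and 12 lowest called genes that reached 20 CPM and whose libraries did not overlap. Red points are higher at day 11 and run up to Cyp309a2 at 3.48, and blue points are lower and run down to Gs2 at -1.99.

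Markers of haemocytes were higher at day 11. Hml, which encodes the clotting factor hemolectin and is the usual marker of plasmatocytes (FBgn0029167; chromosome 3L, 13846054 to 13860001, BDGP6.54 annotation), was at 239, 229, 325 and 219.9 CPM at day 11, against 85.7, 81.7, 108 and 132 CPM at day 8. All 4 libraries of day 11 lay above all 4 of day 8, with replicate 3 the highest of day 11 and replicates 3 and 4 the highest of day 8. Its log2 fold change was 1.31 ± 0.25 (adjusted p = 0.00501). NimC1, a phagocytosis receptor of plasmatocytes, was at 32.8, 41.9, 34.2 and 34.5 CPM at day 11, against 11.2, 9.81, 15.0 and 15.6 CPM at day 8, without overlap (1.47 ± 0.21, adjusted p = 0.000614). The receptor gene eater, whose product binds bacteria (3R, 27095867 to 27099679), was at 27.8, 30.6, 36.0 and 22.9 CPM at day 11, against 7.20, 6.51, 11.0 and 12.1 CPM at day 8 (1.67 ± 0.30, adjusted p = 0.00328). Its lowest library of day 11 was well above the highest of day 8, but eater is among the 12 highest genes, which were named only without overlap.

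Among the 10 haemocyte markers 6 rose (60%, against 3.34% of all tested genes called), none fell and the median log2 fold change was 1.33, where the median of all tested genes was -0.0014. The other members that rose were He, a surface glycoprotein (1.45), Sr-CI, a scavenger receptor (1.42), and Pxn, a peroxidase that crosslinks collagen IV (1.34). Other markers of the list did not pass the test: the GATA factor gene srp averaged 295 ± 15.7 CPM at day 11 and 333 ± 32.7 CPM at day 8 (-0.18, SD, n = 4 each), and the scavenger receptor gene crq averaged 150.4 ± 9.16 and 137 ± 11.8 CPM (0.13). PPO1 and PPO2, the prophenoloxidases of crystal cells, averaged 13.6 ± 5.23 and 29.5 ± 9.34 CPM at day 11 and 23.4 ± 8.401 and 49.6 ± 18.8 CPM at day 8 (-0.78 and -0.75, neither called). The 10 markers summed to 1098 to 1317 CPM at day 11 and 715 to 923 CPM at day 8, and none was at 0 in all libraries. The count of 6 was the same without each of the 8 libraries in turn. Without both libraries with gut RNA the values were 1.10 for Hml, 1.43 for NimC1, 1.46 for eater, 1.17 for Pxn, 1.29 for He and 1.21 for Sr-CI, and NimC1 alone stayed called (adjusted p = 0.00992, 0.056 to 0.0871 for the others). In pooled tissue, more blood cells on the fat body and more RNA of these genes per cell cannot be told apart, and the same holds for a loss of cells of a type or of RNA per cell in the results that follow.

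**Figure D2:**
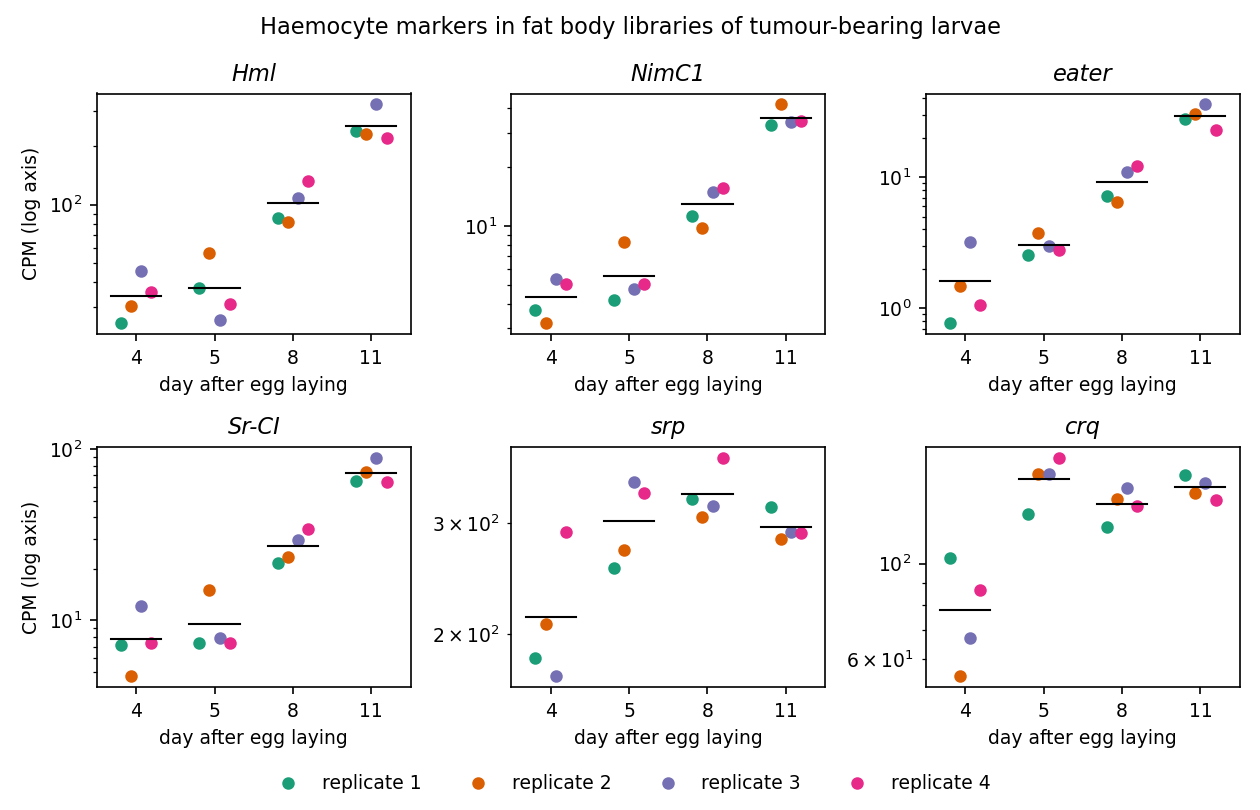
CPM on a log axis of 6 haemocyte markers in each library of tumour-bearing larvae by day after egg laying, with points coloured by replicate number and a bar at the mean of 4. Hml, NimC1, eater and Sr-CI are higher at day 11 than at day 8 in every library, while the day 11 and day 8 points of srp and crq overlap.

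The same 4 transcripts had also been higher at day 8 than at day 5, and the size of both changes could be compared. Hml had a log2 fold change of 1.31 over days 8 to 11 and 1.44 over days 5 to 8, a difference of -0.12 ± 0.43 (adjusted p = 0.931). NimC1 had 1.47 and 1.22 (difference 0.25 ± 0.37), eater 1.67 and 1.61 (0.06 ± 0.53), and Sr-CI 1.42 and 1.53 (-0.11 ± 0.41), none of them past the test. Both changes share the day 8 libraries.

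Of the basement membrane genes LanB1, Ppn and 3 others rose and trol fell, while collagen IV and the other laminin chain genes did not pass the test. LanB1, the laminin beta chain, was at 107, 111, 143 and 114 CPM at day 11, against 45.7, 43.9, 60.9 and 69.0 CPM at day 8, without overlap (1.12 ± 0.19, adjusted p = 0.00279). Ppn, papilin, a secreted matrix protein, was at 252, 242, 305 and 278 CPM at day 11, against 94.9, 96.1, 109 and 139 CPM at day 8, again without overlap (1.29 ± 0.22, adjusted p = 0.00279). The collagen-modifying enzyme genes PH4alphaEFB (0.78, adjusted p = 0.0169) and Plod (0.65, adjusted p = 0.0301) rose as well. In all 5 of 17 list members rose, Pxn among them, and 1 fell (35.3% called, against 3.34% of all tested genes), with a median of 0.11. The gene that fell was trol, which encodes perlecan, at 2731, 2326, 2431 and 2480 CPM at day 11 and 3187, 3696, 3688 and 3287 CPM at day 8 (-0.48 ± 0.11, adjusted p = 0.0208). Calls were lost for trol without any 1 of 5 libraries (adjusted p up to 0.0743), for Plod without any 1 of 7 (up to 0.102) and for PH4alphaEFB without replicate 3 of day 11 (0.0722) or replicate 1 of day 8 (0.0715).

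The collagen IV chain genes and their partner SPARC did not pass the test. Col4a1 averaged 3213 ± 87.8 CPM at day 11 and 3239 ± 243 CPM at day 8 (-0.01 ± 0.18). For vkg the log2 fold change was 0.08 ± 0.21 and for SPARC 0.09 ± 0.12. The other laminin chain genes did not follow LanB1, with LanA at -0.26 ± 0.15 and LanB2 at 0.00 ± 0.13, neither called. LanB1, Ppn and Pxn were called without each library in turn, and 3 members rose in all without replicate 3 of day 11 or replicate 1 of day 8. Without both of these libraries none was called, with values of 0.94 for LanB1 (adjusted p = 0.0592) and 1.17 for Ppn (adjusted p = 0.056).

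Most immune effector transcripts had higher values at day 11, but replicate 2 of day 8 reached well above the other libraries of its day and few members passed the test. DptA, which encodes the antibacterial peptide diptericin, was at 869, 992, 478 and 861 CPM at day 11, against 57.4, 469, 78.5 and 79.2 CPM at day 8. Every day 11 library was above every day 8 library, though replicate 3 of day 11 and replicate 2 of day 8 were close, and the change of 2.23 ± 0.89 was not called (adjusted p = 0.209). Without replicate 2 of day 8 it was 3.48 (adjusted p = 0.0679). Dro, the gene of the proline-rich peptide drosocin (2R, 14745961 to 14746714), was at 370, 481, 231 and 526 CPM at day 11, against 15.4, 169, 22.4 and 25.9 CPM at day 8 (2.79 ± 0.72, adjusted p = 0.0339). Its call was lost without any 1 of 7 libraries, with adjusted p up to 0.116, and held without replicate 2 of day 8 (4.24, adjusted p = 0.00253). Drs, the antifungal drosomycin and the most-used readout of Toll, was at 2924, 1742, 1933 and 2849 CPM at day 11, against 717, 1631, 1357 and 1291 CPM at day 8, without overlap but not called (0.92 ± 0.60, adjusted p = 0.538).

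Of 17 antimicrobial peptide genes tested, 2 rose (Dro and edin), 1 fell (Drsl5), and the median log2 fold change was 1.77. The share called was 17.6%, against 3.34% of all tested genes. The summed CPM of the list was 5333, 5626, 3829 and 6666 at day 11 and 973, 3701, 1606 and 1656 at day 8. The groups of sums did not overlap, and replicate 2 held the highest sum of day 8 by a wide margin. Without that library 5 members rose and 1 fell, with a median of 3.45, and with the other libraries left out in turn 0 or 1 rose. The gene edin, an elevated-during-infection peptide (3L, 17494880 to 17495300), was at 11.2, 71.1, 6.02 and 20.9 CPM at day 11, against 1.20, 4.95, 1.77 and 2.25 CPM at day 8 (3.43 ± 0.80, adjusted p = 0.0191). Replicate 2 of day 11 carried much of that change, which was 2.33 without it (adjusted p = 0.168), and the call was also lost without replicate 1, 3 or 4 of day 8 (adjusted p = 0.0727, 0.0618 and 0.0503). It lies inside the span of Oatp74D on the same strand, so reads of both cannot be fully separated without the counting rules. Drsl5, a drosomycin-like gene, was at 0.0744, 0.0725, 3.67 and 0.114 CPM at day 11, against 4.33, 4.20, 9.71 and 27.6 CPM at day 8 (-3.54 ± 0.79, adjusted p = 0.015). It was near 0 in 3 libraries of day 11 and not in replicate 3, one of the libraries with gut RNA, whose part in that value was not tested. The change was -6.91 without that library, and the call was lost without replicate 2 or 4 of day 11 or replicate 4 of day 8 (-2.62, adjusted p = 0.0616, without the last). Without both libraries with gut RNA Drsl5 was called (-7.18, adjusted p = 8.9e-05).

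The Bomanins are short secreted peptides that Toll signalling induces, and with the related Daisho peptides they had positive changes in all 13 tested members, of which 2 rose and none fell (15.4% called, against 3.34% of all tested genes). BomS6 was at 39.3, 33.2, 32.6 and 37.7 CPM at day 11, against 3.56, 10.8, 8.89 and 4.34 CPM at day 8, well apart (2.38 ± 0.39, adjusted p = 0.00214). BomT2 was at 134, 85.5, 91.9 and 105 CPM at day 11, against 13.5, 31.7, 34.3 and 24.4 CPM at day 8, also without overlap (2.003 ± 0.43, adjusted p = 0.0117). Both were called without each library in turn, BomT2 no longer without both libraries with gut RNA (1.85, adjusted p = 0.0993) or with DESeq2 (2.01, adjusted p = 0.103). The more abundant BomS3 was at 1341, 583, 598 and 1098 CPM at day 11, against 175, 703, 249 and 246 CPM at day 8. Replicate 2 of day 8 exceeded 2 of the day 11 libraries, and the change was not called (1.40 ± 1.01, adjusted p = 0.591). The median of the 13 was 1.71, or 2.68 without replicate 2 of day 8, when 3 rose. Both called members had larger log2 changes over the preceding interval, which started from low levels. The 14 genes of the list summed to 12.2 to 23.2 CPM at day 5, 272 to 1212 CPM at day 8 and 1088 to 2367 CPM at day 11. A larger log2 change here does not mean a larger rise in CPM. BomT2 changed by 2.003 over days 8 to 11 and 6.09 over days 5 to 8 (difference -4.09 ± 0.85, adjusted p = 0.00517), and BomS6 by 2.38 and 5.88 (-3.51 ± 0.83, adjusted p = 0.014).

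**Figure D3:**
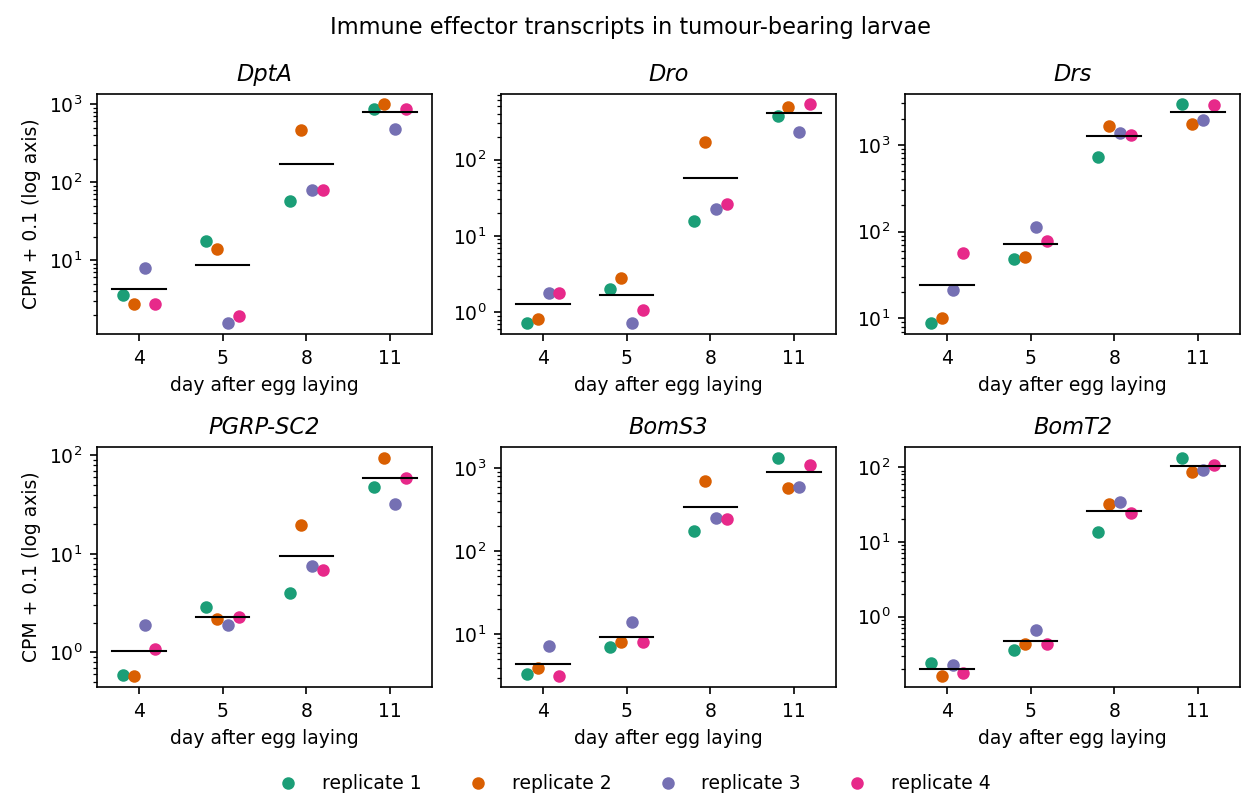
CPM plus 0.1 on a log axis of 6 immune effector transcripts in each tumour library by day after egg laying, with points coloured by replicate number and a bar at the mean of 4. Replicate 2 of day 8 stands above the other day 8 libraries for DptA (469 CPM), Dro (169 CPM), PGRP-SC2 (19.6 CPM) and BomS3 (703 CPM), and all day 11 libraries are above all day 8 libraries except for BomS3.

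Of the upstream components of both pathways 3 were called, 10.5% of the Toll list and 5.56% of the Imd list, against 3.34% of all tested genes. PGRP-SC2, an amidase that degrades peptidoglycan and damps Imd signalling (2R, 8716950 to 8717695), was at 48.0, 94.9, 31.95 and 58.5 CPM at day 11, against 3.90, 19.6, 7.38 and 6.73 CPM at day 8, without overlap (2.64 ± 0.49, adjusted p = 0.0038). It was the single member called of 18 Imd pathway genes. In the Toll list 2 of 19 rose: the recognition protein gene PGRP-SD, at 130, 125, 116 and 123 CPM at day 11 against 58.7, 69.8, 55.5 and 77.2 CPM at day 8 (0.92 ± 0.16, adjusted p = 0.00279), and SPE, the protease that cleaves the Toll ligand (0.77 ± 0.19, adjusted p = 0.0296). The SPE call was lost without any 1 of 5 libraries (adjusted p up to 0.107), that of PGRP-SD was not. No gene of 13 in the JAK/STAT and Turandot list was called by edgeR, where 2 had an unadjusted p under 0.05, and DESeq2 called 1. TotA, a stress-induced secreted peptide, was at 13440, 12520, 12740 and 13430 CPM at day 11 and 8542, 9501, 10280 and 12740 CPM at day 8 (0.34 ± 0.27, adjusted p = 0.625). Its relative TotC was at 616 to 789.6 CPM at day 11 and 337 to 563 CPM at day 8, without overlap and not called (0.81 ± 0.27, adjusted p = 0.114).

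Complement-like proteins and phagocytosis receptors gave 4 higher and 2 lower members of 14 (42.9% called, against 3.34% of all tested genes, median 0.07). NimB1, a secreted Nimrod protein, was at 50.9, 51.4, 65.5 and 57.2 CPM at day 11, against 23.3, 28.9, 24.7 and 34.5 CPM at day 8 (1.01 ± 0.20, adjusted p = 0.00638). NimB3, of the same family, fell, with 178, 184, 161 and 184 CPM at day 11 against 248, 294, 230.5 and 226.5 CPM at day 8 (-0.50 ± 0.10, adjusted p = 0.00468). Neither set of values overlapped between days, and without both libraries with gut RNA neither gene was called (NimB1 0.86, adjusted p = 0.106, and NimB3 -0.46, adjusted p = 0.0698). Tep2, a thioester protein, was at 3449, 3066, 3259 and 3215 CPM at day 11, against 1678, 2249, 2142 and 3051 CPM at day 8 (0.51 ± 0.13, adjusted p = 0.029), a call lost without any 1 of 7 libraries (adjusted p up to 0.113). The other members called were eater, given above, NimC4, at 0.798 to 1.63 CPM at day 11 and 0.0428 to 0.342 CPM at day 8, and Mcr, which was lower (-0.39). Calls of both were lost when single libraries were left out, without any 1 of 7 for NimC4 (adjusted p up to 0.139) and any 1 of 6 for Mcr (up to 0.11).

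Of the storage protein transcripts, which are abundant in the young larval fat body, Lsp1beta and Fbp2 fell at day 11. Lsp1beta, a hexamerin subunit of larval serum protein (FBgn0002563; 2L, 898500 to 901316), was at 19890, 27740, 10740 and 20570 CPM at day 11, against 93310, 76950, 40800 and 40280 CPM at day 8. The highest library of day 11 was below the lowest of day 8 (-1.67 ± 0.26, adjusted p = 0.00121). Fbp2, an abundant fat body protein (2L, 9426784 to 9427917), was at 1210, 3726, 1557 and 1315 CPM at day 11, against 14530, 8452, 5127 and 2754 CPM at day 8 (-1.98 ± 0.37, adjusted p = 0.0045). Here replicate 2 of day 11 overlapped replicate 4 of day 8. Both genes were called without each library in turn, and without both libraries with gut RNA Lsp1beta was still called (-1.21, adjusted p = 0.0103) and Fbp2 was not (-1.38, adjusted p = 0.0871). The Fbp2 call was also lost in a fit of the compared groups alone (adjusted p = 0.104).

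Of the 6 genes in that list these 2 fell (33.3%, against 3.34% of all tested genes called) and 4 did not pass the test, with a median of -0.87. The summed list was at 508600 to 604800 CPM at day 4, 258100 to 404800 CPM at day 5, 80800 to 150200 CPM at day 8 and 38190 to 61740 CPM at day 11. Lsp2, another hexamerin, differed little, at 4504, 5457, 5078 and 5182 CPM at day 11 and 5567, 4900, 4699 and 4774 CPM at day 8 (0.02 ± 0.16, adjusted p = 0.981). Fbp1, the receptor through which the fat body takes hexamerins back up, was at 5097, 5935, 9756 and 5200 CPM at day 11 and 10030, 13280, 16380 and 15700 CPM at day 8, without overlap and not called (-1.09 ± 0.59, adjusted p = 0.415). Lsp1gamma and Lsp1alpha changed by -0.36 ± 0.18 and -0.65 ± 0.49, neither called. The Lsp1 genes are alike in sequence, and how shared reads were assigned is not given in the sources used here.

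**Figure D4:**
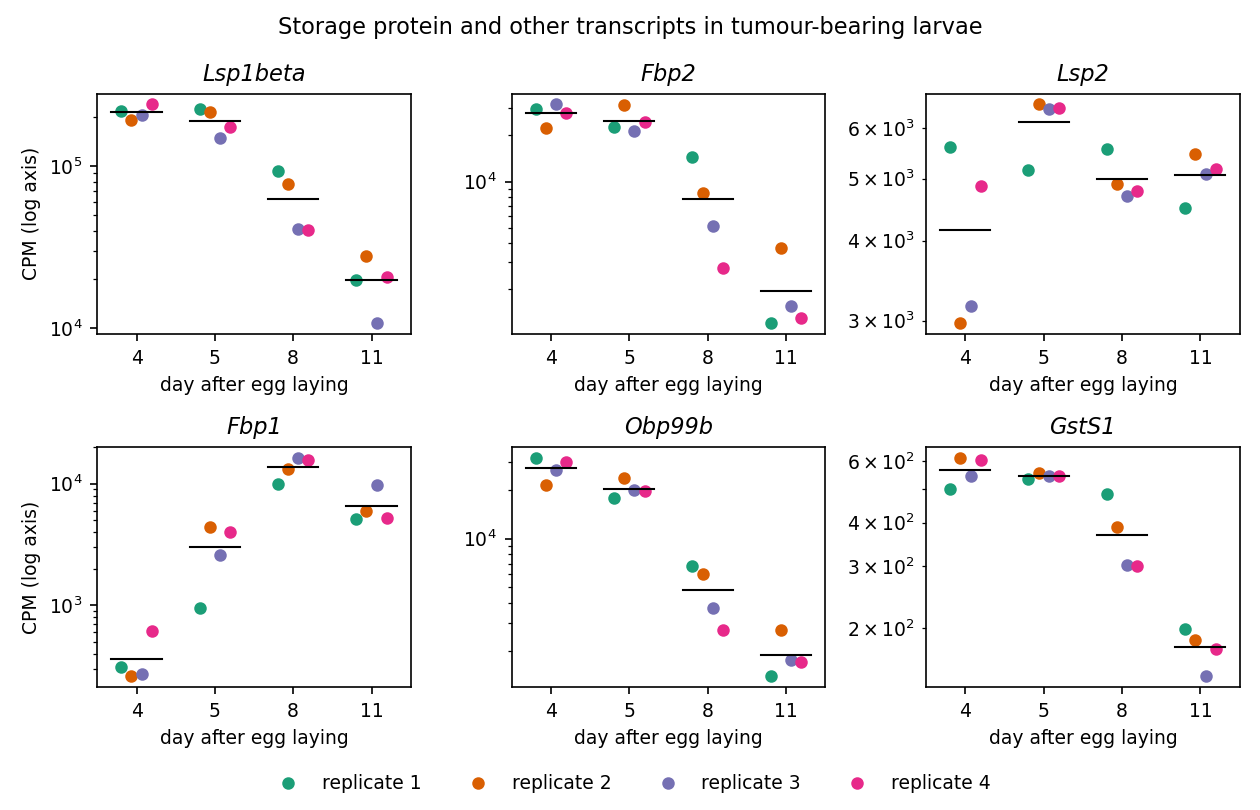
CPM on a log axis of 6 transcripts in each tumour library by day after egg laying, with points coloured by replicate number and a bar at the mean of 4. Lsp1beta, Obp99b and GstS1 are lower in every day 11 library than in every day 8 library (Lsp1beta at 10740 to 27740 CPM against 40280 to 93310 CPM), Fbp2 overlaps, Lsp2 differs little and Fbp1 is highest at day 8.

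Among the other genes that fell were Obp99b, Root and GstS1. Obp99b, an odorant-binding protein gene that the fat body expresses strongly (3R, 29716254 to 29716896), was at 1392, 2703, 1752 and 1706 CPM at day 11, against 6780, 6043, 3720 and 2723 CPM at day 8. Replicate 2 of day 11 was just under replicate 4 of day 8 (-1.35 ± 0.23, adjusted p = 0.00279), and without both libraries with gut RNA it was not called (-1.10, adjusted p = 0.0591). Root, the fly rootletin gene (3R, 24113286 to 24128193), was at 175.5, 170.4, 129 and 156 CPM at day 11, against 436, 378, 268 and 354 CPM at day 8 (-1.19 ± 0.14, adjusted p = 9.42e-05). GstS1, a sigma-class glutathione S-transferase, was at 199, 185, 145 and 174 CPM at day 11, against 483, 389, 303 and 299.8 CPM at day 8 (-1.07 ± 0.14, adjusted p = 0.000342). Root and GstS1 were called under every leave-one-out and without both libraries with gut RNA.

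The remaining genes among the 12 lowest were Gs2, a glutamine synthetase (-1.99), Tsp42Ek, a tetraspanin (-1.43), CG3397 (-1.42), Nt5a (-1.20), CG5554 (-1.14), CG6356 (-1.11), CadN, N-cadherin (-1.11), and CG9512 (-1.01). Gs2 was at 7.93, 7.22, 5.88 and 5.28 CPM at day 11, against 16.2, 25.0, 20.02 and 42.8 CPM at day 8 (-1.99 ± 0.53, adjusted p = 0.0427). The days did not overlap, as the naming rule required, and its call was lost without any 1 of the 8 libraries (adjusted p up to 0.133). Calls were lost for CG3397 without 3 of the libraries (adjusted p up to 0.0858), for CG5554 without 6 (up to 0.116), for CadN without 5 (up to 0.112) and for CG9512 without 5 (up to 0.113), while Tsp42Ek, Nt5a and CG6356 were called without each library in turn. Without both libraries with gut RNA Nt5a (adjusted p = 0.0363) and CG6356 (0.0472) were called and Tsp42Ek was not (-1.44, 0.0684). Tsp42Ek was at 83.3, 79.3, 71.1 and 75.0 CPM at day 11, against 186, 188, 228 and 231 CPM at day 8 (-1.43 ± 0.29, adjusted p = 0.00824).

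In the glutathione S-transferase family 3 of 30 tested genes fell and none rose (10% called, against 3.34% of all tested genes), with a median of -0.26. Of the 3, GstS1 alone was called without each library in turn. GstE7 (-1.18 ± 0.30, adjusted p = 0.0301) overlapped in replicate 3 of day 8 and lost its call without 6 of the libraries (adjusted p up to 0.131), and GstE8 (-0.76 ± 0.20, adjusted p = 0.0396) without 5 (up to 0.152). Cytochrome P450 genes went both ways, 3 higher and 2 lower of 65 (7.69% called, median 0.0003). Cyp309a2 (2L, 2564886 to 2573037) had the highest fold change of the genes named by rule, with 60.5, 87.8, 92.9 and 55.2 CPM at day 11, against 2.83, 4.72, 8.67 and 10.2 CPM at day 8 (3.48 ± 0.46, adjusted p = 0.000328). Its lowest day 11 library was far above its highest day 8 library, though a lack of overlap was required for naming it. It was called under every alternative that was run, a required minimum of 2-fold included. Cyp6a8 was at 49.2, 68.9, 60.2 and 57.0 CPM at day 11, against 20.3, 22.97, 23.5 and 25.7 CPM at day 8 (1.35 ± 0.25, adjusted p = 0.0038), and was not called without both libraries with gut RNA (1.28, adjusted p = 0.0606). Cyp6d2 (-0.81) and Cyp4d1 (-0.67) fell, with the call of Cyp4d1 lost without replicate 3 of day 11 or replicate 1 of day 8 (adjusted p = 0.0505 and 0.0529). Cyp4aa1 rose with overlapping libraries (1.21, adjusted p = 0.0339), a call lost without any 1 of 6 libraries (up to 0.121).

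Further genes among the 12 highest encode secreted or digestive enzymes or have no named product. Amy-d, a distal alpha-amylase (2R, 17124764 to 17126369), was at 36.5, 47.1, 64.9 and 37.2 CPM at day 11, against 7.75, 9.01, 14.0 and 17.4 CPM at day 8 (1.95 ± 0.27, adjusted p = 0.0005). It stayed called without both libraries with gut RNA (1.58, adjusted p = 0.0103). Its near-identical neighbour Amy-p was not called (1.59 ± 0.52, adjusted p = 0.105), and how their shared reads were assigned is not given in the sources used here. CG43402 (2L, 1442627 to 1443832) was at 305, 321.5, 336 and 259 CPM at day 11, against 43.4, 42.2, 79.6 and 113 CPM at day 8 (2.13 ± 0.25, adjusted p = 9.42e-05). CG8299, a serine protease by its RefSeq synonym, was at 30.2, 46.9, 44.7 and 38.3 CPM at day 11, against 5.74, 9.06, 16.01 and 20.4 CPM at day 8 (1.64 ± 0.33, adjusted p = 0.00654). CG31326, a serine protease homologue by the same source, was at 57.9, 59.4, 81.2 and 59.0 CPM at day 11, against 11.5, 20.8, 23.8 and 28.1 CPM at day 8 (1.61 ± 0.29, adjusted p = 0.00317). Neither CG8299 (1.34, adjusted p = 0.0727) nor CG31326 (1.28, adjusted p = 0.0606) was called without both libraries with gut RNA. CG5399 (2.13 ± 0.49, adjusted p = 0.0176) lost its call without replicate 3 of day 11 or replicate 1 or 2 of day 8 (adjusted p up to 0.0652).

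Genes of the steroid hormone response showed a mixed pattern, with 2 of 19 higher and 1 lower (15.8% called, against 3.34% of all tested genes, median -0.14). Pulses of ecdysone time the larval moults and metamorphosis, and Blimp-1, which ecdysone induces, represses ftz-f1 until it decays after the pulse. Blimp-1, a transcriptional repressor (3L, 5630983 to 5652094), was at 3.13, 3.63, 3.71 and 3.48 CPM at day 11, against 0.214, 0.424, 0.302 and 0.609 CPM at day 8 (3.14 ± 0.62, adjusted p = 0.00638). The nuclear receptor gene ftz-f1 was at 17.97, 16.2, 18.9 and 17.1 CPM at day 11, against 10.2, 9.998, 12.1 and 13.4 CPM at day 8 (0.62 ± 0.13, adjusted p = 0.00919). Both were separate between days and kept their calls without each library in turn, but not without both libraries with gut RNA (Blimp-1 2.92, adjusted p = 0.0826; ftz-f1 0.53, adjusted p = 0.128). Hr4, a nuclear receptor that is itself induced by ecdysone (X, 1941940 to 2007956), was at 1.12, 1.31, 4.45 and 1.597 CPM at day 11, against 3.43, 4.72, 9.54 and 14.8 CPM at day 8 (-1.94 ± 0.41, adjusted p = 0.00927). Replicate 3 of day 11 was its highest and overlapped day 8, and without it the change was -2.59, still called, while in a fit of the compared groups alone the gene was not called. Without both libraries with gut RNA Hr4 was called (-2.84, adjusted p = 0.000265).

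Oatp74D, the transporter through which cells import ecdysone (3L, 17487118 to 17511693), was at 638, 590.0, 545 and 566 CPM at day 11, against 1198, 914, 784 and 1078 CPM at day 8. Every day 11 library was below every day 8 library (-0.76 ± 0.14, adjusted p = 0.00379), and without both libraries with gut RNA the change was -0.63 (adjusted p = 0.0771). The adult-fate factor gene Eip93F was at 48.6, 41.1, 42.4 and 47.3 CPM at day 11, against 11.6, 14.0, 22.8 and 32.4 CPM at day 8. It did not overlap and just missed the threshold (1.15 ± 0.33, adjusted p = 0.0581), and passed it without replicate 4 of day 8 (1.48, adjusted p = 0.0233). Kr-h1, the effector of juvenile hormone that holds insects in the larval state, was at 4.50, 3.99, 3.98 and 4.62 CPM at day 11 and 4.24, 3.63, 4.70 and 4.03 CPM at day 8 (0.04 ± 0.26, adjusted p = 0.977). Of 12 genes of the juvenile hormone response 1 fell (8.33%, against 3.34% of all tested genes called), the epoxide hydrolase gene Jheh3 (-0.50, adjusted p = 0.04, lost without any 1 of 7 libraries, adjusted p up to 0.152).

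Of the signals and insulin pathway genes given here, egr fell, chico rose and the others did not pass the test or were too low to test. In a list of TGF-beta and tumour-derived signals none of 19 tested genes was called, and 0 had an unadjusted p under 0.05 by edgeR. The gene egr was the single call of 17 growth and nutrient signals (5.88%) and of 11 JNK pathway genes (9.09%). The gene chico was that of the insulin list (5%), against 3.34% of all tested genes called. Neither egr (-0.59, adjusted p = 0.064) nor chico (0.45, adjusted p = 0.0698) was called without both libraries with gut RNA. ImpL2, a secreted antagonist of insulin, was at 225, 207, 264 and 241 CPM at day 11 and 207, 204.0, 194 and 256 CPM at day 8 (0.12 ± 0.16, adjusted p = 0.831). The insulin-like peptide gene Ilp6 changed by -0.11 ± 0.20, and Thor, the translational inhibitor that insulin signalling represses, by -0.68 ± 0.26 (adjusted p = 0.188) without overlap, at 334 to 413 CPM at day 11 and 522 to 692 CPM at day 8. Within the 20 insulin pathway genes chico, the insulin receptor substrate, alone was called, at 58.5, 53.4, 55.7 and 63.7 CPM at day 11 against 42.5, 42.2, 42.6 and 43.7 CPM at day 8 (0.44 ± 0.09, adjusted p = 0.00927). The tumour necrosis factor gene egr was at 77.2, 82.4, 68.9 and 87.1 CPM at day 11 and 138, 144, 123 and 103 CPM at day 8, without overlap (-0.69 ± 0.12, adjusted p = 0.00306). The cytokine gene upd3 had 2 to 10 counts per library at day 11 and 2 to 5 at day 8, and Ilp8, the relaxin that wounded discs release, had 1 to 2 and 1 to 6, too few to test.

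Of all tested genes 3.34% were called, and among metabolic lists the shares were 12.5% of 16 tricarboxylic acid cycle genes, 8% of 25 genes of amino acid catabolism and 7.69% of 13 glycolysis genes. These were 1 higher and 1 lower gene of the cycle, 1 higher and 1 lower of amino acid catabolism, and 1 lower glycolysis gene, Tpi. Without each library in turn 1 gene of the cycle stayed called and none of the other lists. None of 10 genes of gluconeogenesis and the pentose phosphate pathway or 11 of glycogen and trehalose metabolism was called. None of 61 oxidative phosphorylation genes (median 0.08), 73 mitochondrial ribosomal proteins (-0.0001), 31 proteasome subunits (-0.06), 18 aminoacyl-tRNA synthetases (-0.02), 46 translation factors (-0.05) or 29 secretory pathway genes (0.0007) was called by edgeR. In that order 1, 1, 2, 0, 6 and 2 of them had an unadjusted p under 0.05, and DESeq2 called 0, 0, 1, 0, 2 and 1. Of 84 cytosolic ribosomal proteins 1 fell, RpLP0 (-0.32, adjusted p = 0.0452, lost without 6 of the libraries, up to 0.172), with a list median of -0.09. In the tricarboxylic acid cycle ScsbetaG fell (-0.72 ± 0.11, adjusted p = 0.00102) and ScsbetaA rose (0.39 ± 0.11, adjusted p = 0.0467), the alternative GDP- and ADP-specific beta subunits of succinyl-CoA synthetase. ScsbetaG was at 179, 169.7, 137 and 168 CPM at day 11, against 307, 278, 244 and 252 CPM at day 8, while ScsbetaA was at 1087, 991, 1090.0 and 1097 CPM at day 11, against 692, 751, 887 and 934 CPM at day 8. The ScsbetaA call was lost without any 1 of 7 libraries (adjusted p up to 0.19), and that of ScsbetaG was not.

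Among lipid genes 10.5% of 19 in lipolysis, 5% of 20 in fatty acid synthesis and 6.67% of 15 lipid carriers were called, against 3.34% of all tested genes. These were 2, 1 and 1 genes, and none of them was called without each library in turn. SREBP, the regulator of lipid synthesis, rose by 0.31 ± 0.08 (adjusted p = 0.0335, lost without 6 of the libraries, up to 0.133), while FASN1, fatty acid synthase, was at 648.5, 578, 454 and 345 CPM at day 11 and 770.3, 851, 750.4 and 489 CPM at day 8 (-0.50 ± 0.23, adjusted p = 0.287). The droplet coat gene Lsd-1 (-0.44, call lost without 6 of the libraries, adjusted p up to 0.123) and Mcad, an acyl-CoA dehydrogenase (-0.69, without 5, up to 0.073), fell, and the lipase gene bmm was not called (0.49 ± 0.17, adjusted p = 0.131). The ferritin subunit genes Fer1HCH and Fer2LCH rose, Fer1HCH at 561, 634, 657 and 586 CPM at day 11, against 393, 437, 403 and 444 CPM at day 8 (0.54 ± 0.12, adjusted p = 0.0157, 0.0619 without replicate 1 of day 8 and 0.0615 without replicate 3 of day 11), and Fer2LCH by 0.59 ± 0.11 (adjusted p = 0.005). Neither was called without both libraries with gut RNA (adjusted p = 0.181 for Fer1HCH and 0.0781 for Fer2LCH). They overlap on opposite strands of 1 locus, so their counts may not be independent. Among serpins, inhibitors of the proteases that drive Toll and melanisation, Spn88Eb rose (0.69 ± 0.08, adjusted p = 9.42e-05), and Spn42Db (-0.82) and Spn42Dc (-0.47) fell, of 16 tested (18.8% called). The Spn42Dc call was lost without any 1 of 4 libraries (adjusted p up to 0.0858), and that of Spn42Db without both libraries with gut RNA (-0.65, adjusted p = 0.0591).

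**Figure D5:**
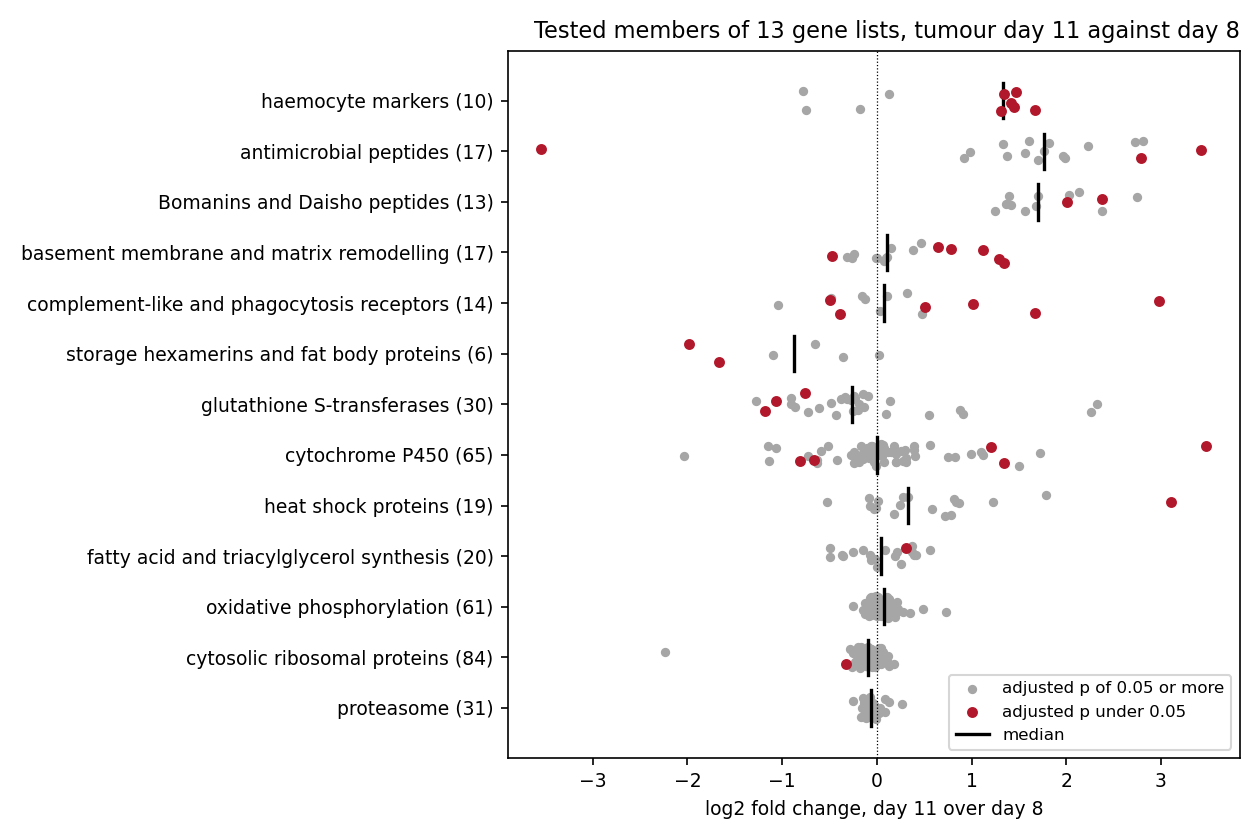
Log2 fold change of day 11 over day 8 for every tested member of 13 gene lists, with red points called at an adjusted p under 0.05, grey points not called, and a black bar at the list median (number tested in brackets). The medians of haemocyte markers, antimicrobial peptides and Bomanins lie right of 0 (1.33, 1.77 and 1.71) and that of storage proteins left of it (-0.87). Those of oxidative phosphorylation, ribosomal and proteasome genes lie close to it. Single members lie apart from their median, the lowest at -0.78 for haemocyte markers, -3.54 for antimicrobial peptides and -2.23 for ribosomal proteins.

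For each gene the change over days 8 to 11 was also set against that over days 5 to 8, both intervals of 3 days that share the day 8 libraries. Day 8 against day 5 gave 2270 called genes (26.1%), and in 463 genes (5.32%) the changes themselves differed, 216 with a difference above 0 (2.48%) and 247 below (2.84%). Genes in the second set include several that climbed before day 8 and then stopped or turned back. CtsL3, a cathepsin L gene (3R, 6025826 to 6027238), was at 437, 412.5, 501 and 321 CPM at day 11 and 251, 310.4, 444.5 and 681 CPM at day 8 (-0.01 ± 0.32), after averaging 4.21 CPM at day 5, a difference of changes of -6.65 ± 0.55. CG9812 was at 12.8, 4.32, 19.8 and 16.2 CPM at day 11 and 47.8, 18.1, 76.3 and 163 CPM at day 8 (-2.52 ± 0.62, adjusted p = 0.0274), after a change of 5.99 over days 5 to 8. The CG9812 call was lost without any 1 of 6 libraries, with -1.83 without replicate 4 of day 8 (adjusted p = 0.109). Eip93F (1.15 after 5.70) and Gs2 (-1.99 after 3.20) belong to the same set.

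In the first set were genes that had dropped before day 8. The acyltransferase gene Agpat2 was at 4.39, 5.29, 4.05 and 3.82 CPM at day 11 and 3.47, 3.16, 2.72 and 4.00 CPM at day 8 (0.39 ± 0.27), after averaging 53.6 CPM at day 5, a difference of changes of 4.39 ± 0.50. CG8665 was at 287, 304, 377 and 432.5 CPM at day 11 and 182, 162, 103 and 105 CPM at day 8 (1.34 ± 0.35, adjusted p = 0.0348), against 826 CPM on average at day 5. Its call against day 8 was lost without any 1 of 7 libraries (adjusted p up to 0.107), while its difference of changes was 3.93 ± 0.65 (adjusted p = 0.000895). FASN1 changed by -0.50 over days 8 to 11, which was not called, and by -2.76 over days 5 to 8 (difference 2.27, adjusted p = 0.00186). Genes of either set named as lowest or highest were chosen by that difference, so its size in them is a description.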

How the data were processed

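The deposited values are raw read counts (whole numbers, not normalized) for 17698 gene identifiers, of which 17560 matched a symbol and BDGP6.54 coordinates. Per the submitters' processing notes, STAR 2.5.4a and build BDGP6 were used in roles not stated. How reads were counted, and whether strand was used, is not given in the sources used here, so near-identical, overlapping and antisense genes are uncertain. Besides edin, PGRP-SD and Mcad lie within another gene on the same strand, CG32373. Fbp2, SPE and Tsp42Ek partly overlap CG42847, CG18754 and Tsp42Ej on the same strand, in that order. In R 4.3.3, edgeR 4.0.16 (filterByExpr, TMM, robust quasi-likelihood) was fitted to all 24 libraries with a mean per group, testing day 11 against day 8, and that change minus the change from day 5 to 8. Standard errors are the log2 fold change over the square root of F. Figures used Python 3.11.15 with matplotlib 3.10.9. No library was a copy of another of its day (chi-square per degree of freedom at least 18.6).

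Named genes were the 12 highest and 12 lowest called with 20 CPM and no overlap, up to 4 called members per list (48 function and 13 marker lists), the 6 most negative and 6 most positive differences of changes, and a fixed set. Further members of the lists described were named after their values were seen. Members and lists were chosen with earlier results of these data known. On simulated counts, 32.8%, 62.7% and 86.4% of genes changed 1.5, 2 and 4-fold were recovered among 8585 tested, and 7 of 8387 unchanged genes were called. These counts were drawn for each gene independently with the fitted spread. They held no library set apart by gut RNA, so the 7 do not measure false calls in the real libraries. Alternatives were RLE scaling, DESeq2 1.42.0, a fit of the compared groups alone, no low-count filter, a replicate block, non-robust dispersion, TMM factors from all but the 20 most abundant genes, a 2-fold minimum and each library left out. An alternative without both libraries with gut RNA was added after seeing the data.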

Additional observations from a re-analysis of the deposited data

Results flagged for a closer look

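In 11 of 184 groups of 4 libraries of a named gene 1 library lay far from the others (Dixon's criterion, which chance meets in about 1 of 20 groups). At day 8 replicate 1 held 96.3 CPM of CG13460, against 0.189, 0.259 and 0.342 CPM in the others, and this library also held the highest salivary gland and gut marker sums of day 8, whose part was not tested. Replicate 2 of day 8 held 469 CPM of DptA and 169 CPM of Dro. At day 11 replicate 3, a library with gut RNA, was far from the others for Drsl5 (3.67 CPM), Hr4 (4.45 CPM), CG31326 (81.2 CPM) and, on the low side, Spn42Db (4.96 CPM). Replicate 2 of day 11 was far from the others for Fbp2 (3726 CPM), Yp3 (3.16 CPM) and, on the low side, ScsbetaA (991 CPM). Replicate 4 of day 11 was low for FBgn0028519, a gene with no symbol here (90.1 CPM).

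For 30 of 92 named genes tested, the log2 change over days 8 to 11 minus that over days 5 to 8 passed the test (adjusted p under 0.05 over all genes), and the 12 lowest and highest were chosen by that difference. The chosen ones were CG13460 (-13.61, resting on replicate 1 of day 8), CG9812 (-8.51), CtsL3 (-6.65), FBgn0028519 (-6.27), Gs2 (-5.18) and Eip93F (-4.55) on the negative side. On the positive side they were Agpat2 (4.39), CG8665 (3.93), Yp3 (3.67), sro (3.30), Lsp1alpha (3.27) and CG10962 (3.10). Immune genes with a negative difference were Drsl5 (-11.94, with day 11 levels near 0), BomT2 (-4.09), BomS6 (-3.51), Tep2 (-0.96) and NimB3 (-0.73). Others with a negative difference were Hr4 (-4.82), CG5554 (-4.45), CG8299 (-4.17), CG31326 (-2.38), Nt5a (-2.04), CG43402 (-1.98), Tsp42Ek (-1.80), Cyp6d2 (-1.16), Oatp74D (-0.96) and ScsbetaA (-0.94). FASN1 (2.27), Spn88Eb (1.27) and SREBP (1.21) had positive ones.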

How the results depend on the processing

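With all libraries 291 genes were called (150 higher, 141 lower), and none of them changed direction under any alternative. Totals (higher, lower) moved beyond 1.5 times with DESeq2 to 559 (301, 258), with only the compared groups in the fit to 835 (449, 386), without the low-count filter to 187 (79 lower), with a minimum of 2-fold to 4 (3, 1), and without both libraries with gut RNA to 41 (21, 20). Leaving out 1 library gave 137 to 277 (75 to 153 higher, 60 to 124 lower), lowest without replicate 1 of day 8. The 463 genes whose changes differed between both intervals became 824 with only the compared groups, 58 with the 2-fold minimum and 213 to 532 with 1 library left out, with 249 and 213 without replicates 3 and 4 of day 8. The cause was not tested, beyond the fewer libraries in some fits.

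Replicate numbers did not pair the libraries: deviations of same-numbered libraries correlated at 0.21, 0.02, -0.12 and -0.20. With a replicate block 303 genes were called (154 higher, 149 lower) and 436 differed between intervals. Not every library correlated best with its own number.

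Signs turned only in genes that were not called. With 1 library left out, the log2 fold change ran from -0.0164 to 0.0783 for Lsp2, from -0.0166 to 0.1069 for Kr-h1, from -7.29 to 0.56 for CG13460 (0.56 without replicate 1 of day 8), from -0.20 to 0.32 for CtsL3 and from -0.48 to 0.30 for Yp3. CtsL3 was 0.0002 without the low-count filter and 0.0925 with the replicate block. Without both libraries with gut RNA, CG13460 was 0.88, Lsp1alpha 0.0848 and Yp3 0.43. On simulated counts, changes under 2-fold were often missed.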

Other observations

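Serine proteases and their inactive homologues, identified by RefSeq symbols and synonyms, were grouped after their values had been seen. Of 122 tested, 17 rose and 3 fell at day 11 (16.4%, against 3.34% of all tested genes), with a median log2 fold change of 0.04. Of the 17 that rose, 8 were called without each library in turn and 9 lost their call without at least 1 library, and of the 3 that fell 1 was called each time. Without both libraries with gut RNA 1 of the 17, CG33460, and none of the 3 stayed called. CG33460 was at 69.0, 64.5, 75.4 and 68.0 CPM at day 11 and 27.6, 32.5, 32.3 and 43.7 CPM at day 8 (1.02 ± 0.17, adjusted p = 0.00214), and it stayed called without both libraries with gut RNA (0.89, adjusted p = 0.0472). CG11841 (4.07), CG9649 (3.77) and CG11842 (3.36) had the highest fold changes of the group at low levels, 4.14 ± 1.58, 2.81 ± 0.48 and 7.11 ± 2.34 CPM at day 11 and 0.239 ± 0.18, 0.198 ± 0.14 and 0.687 ± 0.13 CPM at day 8, in that order (SD, n = 4 each). All 3 were called without each library in turn. Without both libraries with gut RNA their changes were 4.20, 3.93 and 3.11, and none was called (adjusted p = 0.056, 0.0727 and 0.0978).

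The male-specific dosage compensation RNA lncRNA:roX1 was at 779, 708, 932 and 855 CPM at day 11 and 228, 339, 380.3 and 586 CPM at day 8 (1.09 ± 0.30, adjusted p = 0.0446), without overlap. Its call was lost without any 1 of 7 libraries (adjusted p up to 0.17), and without both libraries with gut RNA the change was 0.84 (adjusted p = 0.351). The companion lncRNA:roX2 changed by 1.29 ± 0.54 (adjusted p = 0.226) and the gene of their partner protein, msl-2, by 0.24 ± 0.18 (adjusted p = 0.598), neither called.

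The stress-responsive noncoding RNA lncRNA:Hsromega was at 98.1, 169, 122 and 135 CPM at day 11 and 43.5, 69.0, 64.3 and 57.95 CPM at day 8 (1.16 ± 0.18, adjusted p = 0.00125). Of 19 heat shock protein genes 1 rose (5.26%, near the 3.34% of all tested genes called), Hsp67Bc (3.10 ± 0.80, adjusted p = 0.0344, lost without any 1 of 5 libraries, up to 0.128). CG34206, chosen after its values were seen, was at 0, 0, 0.034 and 0 CPM at day 11 and 2.18, 0.236, 6.26 and 26.1 CPM at day 8, after a mean of 0.0434 CPM at day 5.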
